A study of Homo sapiens with 2 samples.

Results

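The genes described here are 7 with parts in signalling by the cyclic nucleotides cGMP and cAMP. They are the phosphodiesterases PDE9A and PDE7A, the nitric oxide synthases NOS1 and NOS3, the cGMP effectors IRAG1 and VASP, and the adenylyl cyclase ADCY7. They were taken by gene symbol from the platform annotation, which named all 7, each by 1 probe set, among 14884 named genes. They were measured in SNK6, an Epstein-Barr virus-positive human line of NK/T-cell lymphoma grown with interleukin-2. One culture received romidepsin together with sildenafil for 72 h (1 array), and the other received romidepsin alone for 72 h (1 array). Romidepsin is an inhibitor of class I histone deacetylases, and sildenafil inhibits cGMP phosphodiesterases, chiefly PDE5. Both cultures therefore carried the deacetylase inhibitor, and no untreated or sildenafil-only culture was analysed here. The second drug is abbreviated in the sample title and was taken to be sildenafil, the only second drug of the treatment protocol, and the sources used here state no doses. With 1 array for each treatment no value below has a replicate error, no difference could be tested, and the drug, the culture and the array cannot be told apart. RNA came from whole cultures, so fewer cells with a transcript and less of it in each cell cannot be told apart either.

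Cyclic nucleotides are second messengers. Nitric oxide made by the nitric oxide synthases activates a soluble guanylyl cyclase that forms cGMP, while hormone and adenosine receptors act through G proteins on adenylyl cyclases that form cAMP. Phosphodiesterases end both signals by hydrolysing the nucleotides. In lymphocytes cAMP is known as a brake on activation, carried by protein kinase A, and cGMP acts mainly through protein kinase G. Sildenafil blocks the catalytic site of its target enzymes.

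VASP and PDE7A were the members with a signal above that of background-like genes on both arrays. The table holds no detection calls, so background-like signal was taken from a list of 40 genes of tissues such as liver, lung, skin and pituitary, which lymphocytes do not use in their main roles. Of these 20 were named. Their median log2 signal was 4.30 with sildenafil and 3.94 without it, and their 95th percentile was 5.82 with sildenafil and 5.94 without it. VASP and PDE7A exceeded that percentile on both arrays. PDE9A, NOS1, NOS3 and IRAG1 lay below it but at or above the median of each array's probe sets (3.92 with sildenafil and 3.89 without). ADCY7 lay above the median on the array with sildenafil and under it on the other. One listed gene, ALB, which encodes albumin, had a signal of 8.52 with sildenafil and 8.51 without it, so a high signal on this list did occur. Without ALB the percentile was 5.33 with sildenafil and 5.14 without it, and each of the 7 genes kept its place. Probe sets differ in how well they hybridise, so these signals do not order the genes by transcript amount.

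**Figure D1:**
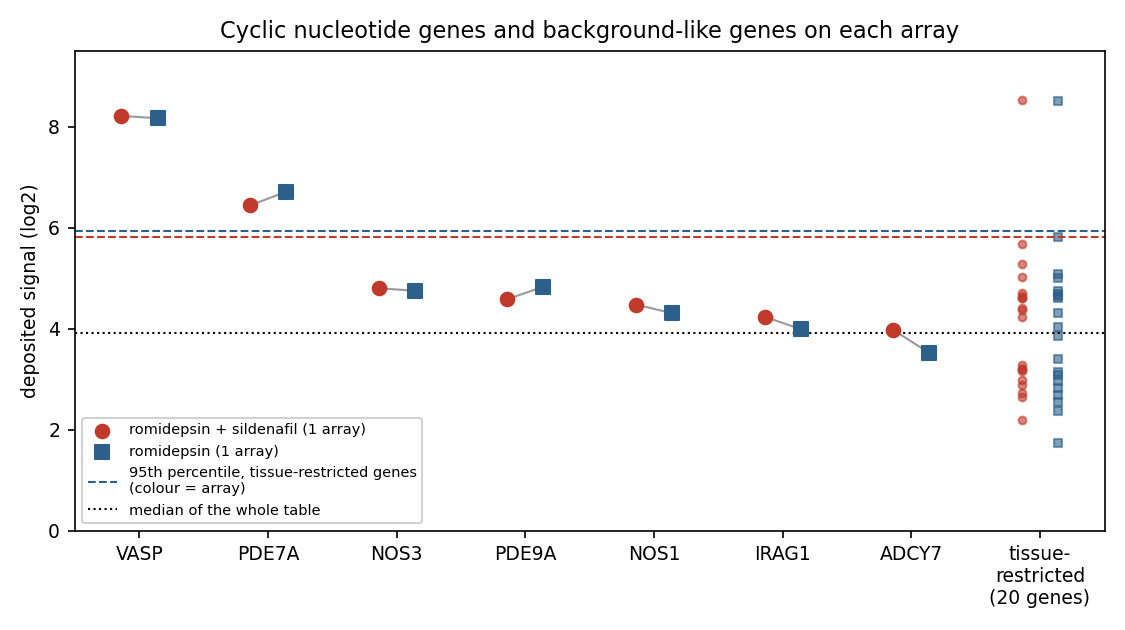
Deposited log2 signal of each of the 7 genes on the array with romidepsin plus sildenafil (red circles, left of each pair) and on the romidepsin array (blue squares, right), beside the 20 tissue-restricted genes. Dashed lines mark the 95th percentile of the tissue-restricted genes on each array (5.82 with sildenafil and 5.94 without), and the dotted line marks the median of the whole table (3.91). VASP and PDE7A lie above the dashed lines on both arrays.

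None of the 7 genes differed by 1.5-fold between the arrays. Differences are log2 signals with sildenafil less those without it, and 5 genes were higher and 2 lower with sildenafil. The median difference of the 7 was 0.05, against -0.01 over the 10081 named genes whose brighter array reached the table median of 3.91. Of those 10081 genes 1.99% differed by at least 1.5-fold, 1.02% being higher and 0.972% lower with sildenafil. A count of 0 among 7 genes is close to that share, and nothing particular to these genes can be read from it. All 7 passed the signal filter, ADCY7 only through its value with sildenafil. To show how far genes of like signal scattered, each member was set beside the 1000 named genes nearest to it in mean signal. All 7 differences lay inside the central 95% of those genes. The median difference of those genes changed with signal. It ran from 0.03 around NOS3 to 0.06 around NOS1 for the dim members, and was -0.04 around PDE7A and -0.03 around VASP. The medians of 0.05 and -0.01 above are therefore not compared at like signal.

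**Figure D2:**
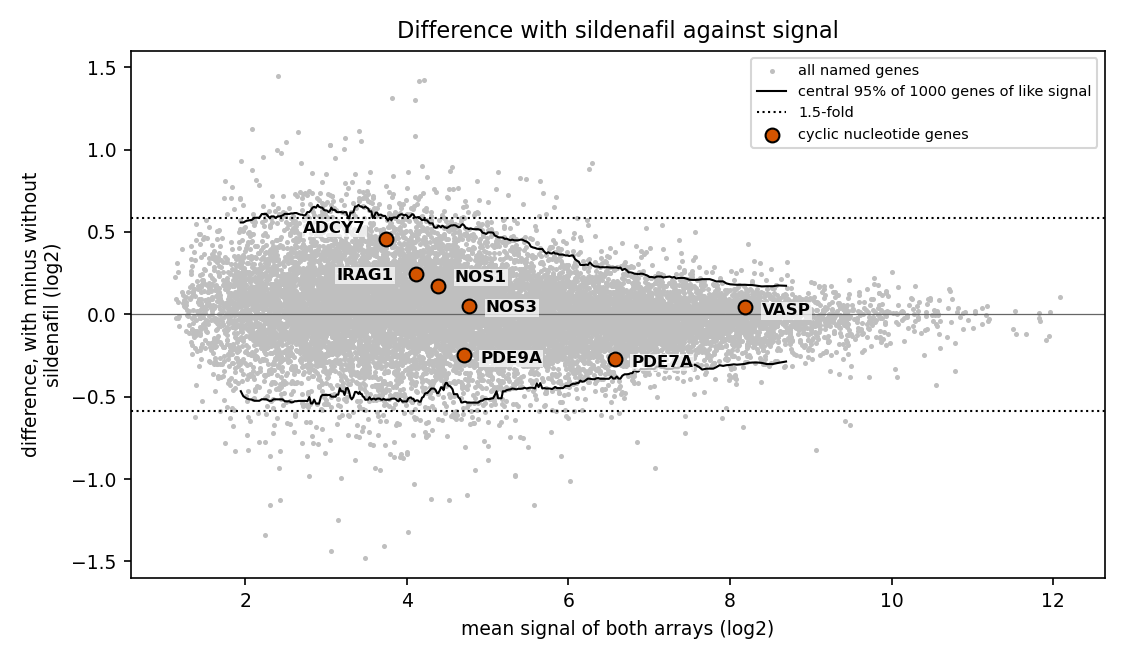
Difference in log2 signal (romidepsin plus sildenafil minus romidepsin) against the mean log2 signal of both arrays for all 14884 named genes (grey) and the 7 cyclic nucleotide genes (orange); 2 genes beyond 1.6 are outside the axis. Solid lines bound the central 95% of 1000 genes of like signal, dotted lines mark 1.5-fold, and all 7 genes lie between the solid lines.

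Both phosphodiesterases had lower signals with sildenafil. PDE7A, a cAMP-specific phosphodiesterase found in lymphocytes, had a log2 signal of 6.44 with sildenafil and 6.71 without it. It was 1.21-fold lower with sildenafil, a log2 difference of -0.27. Among genes of like signal the differences had an SD of 0.16 and a central 95% of -0.39 to 0.28, so PDE7A lay 1.7 SD below 0. As deposited, that was further out than the other 6 members measured in this way, with ADCY7 at 1.6 SD above 0. The order rests on the scaling. After quantile normalization PDE7A differed by -0.21 and ADCY7 by 0.43, and against the same SDs (0.16 and 0.29) ADCY7 was further out. GAPDH, a housekeeping gene with a signal near that of PDE7A, differed by -0.26. Of the 6 housekeeping genes named, 4 were lower and 2 higher with sildenafil. PDE9A, a high-affinity phosphodiesterase specific for cGMP, had a signal of 4.58 with sildenafil and 4.83 without it. Its difference of -0.25 corresponds to a 1.19-fold lower signal. Genes of its signal scattered more widely, with an SD of 0.26 and a central 95% of -0.54 to 0.55.

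The other named phosphodiesterases differed less between the arrays. Of 24 phosphodiesterase genes listed, 6 were named and 3 passed the filter, and all 3 were lower with sildenafil under each of the 4 scalings tried, with none at 1.5-fold. PDE8A, a cAMP-specific enzyme, was the third, with 5.96 with sildenafil and 6.01 without it, a difference of -0.06. PDE7B, the closest relative of PDE7A, had 3.18 with sildenafil and 3.09 without it, and PDE8B had 3.39 with sildenafil and 3.47 without it. PDE11A, which hydrolyses both nucleotides, had 2.36 on each array. These last 3 genes lay under the table median on both arrays. PDE5A and the remaining genes of this list are not analysed here.

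The nitric oxide synthases had low signals that were nearly equal on the arrays. NOS1, the neuronal enzyme, had a signal of 4.48 with sildenafil and 4.31 without it, a difference of 0.17. NOS3, the endothelial enzyme, had 4.80 with sildenafil and 4.75 without it, a difference of 0.05. Genes of like signal had an SD of 0.26 around NOS1 and 0.25 around NOS3, so both differences were smaller than the scatter of such genes. The 20 tissue-restricted genes included several with signals as high as those of NOS1 and NOS3, such as APOA1 with 4.60 with sildenafil and 4.75 without it. Genes listed as markers of endothelial cells, in which NOS3 is best known, were also dim: VWF had 3.68 with sildenafil and 3.46 without it, and PECAM1 had 3.37 with sildenafil and 3.31 without it.

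Genes around the nitric oxide synthases included some with larger differences than the synthases themselves. Of 15 genes of nitric oxide and cGMP synthesis 8 were named and 5 passed the filter, with 0 at 1.5-fold. The receptor guanylyl cyclases NPR1 and GUCY2C did not pass it, with 3.66 for NPR1 with sildenafil and 3.53 without it, and 2.61 for GUCY2C with sildenafil and 2.37 without it. NPR3, the clearance receptor for natriuretic peptides, differed by -0.29 and passed the filter only through the array without sildenafil, so the size of its difference is uncertain. The peptide gene NPPA differed by -0.21. Of 17 genes for cofactors and regulators of nitric oxide synthesis, 11 were named and 10 passed the filter. GCH1, the first enzyme in the synthesis of the synthase cofactor tetrahydrobiopterin, had a signal of 7.87 with sildenafil and 8.24 without it. Its difference of -0.37 lay outside the central 95% of genes of like signal, which ran from -0.31 to 0.18. QDPR, which recycles that cofactor, had 5.97 with sildenafil and 5.57 without it, and its difference of 0.41 lay outside the range of -0.45 to 0.37. HPRT1, a housekeeping gene with a signal near that of GCH1, differed by -0.33, also outside its range of -0.31 to 0.19. NOS1AP, an adaptor of NOS1, differed by -0.20, and DDAH1, which degrades an inhibitor of the synthases, by 0.16.

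Of the cGMP effectors, VASP was bright and nearly equal on the arrays and IRAG1 was dim. VASP is an actin-regulating protein that protein kinases A and G phosphorylate. It had a log2 signal of 8.21 with sildenafil and 8.16 without it, a difference of 0.04 that corresponds to 1.03-fold. Genes of like signal had an SD of only 0.13 and a central 95% of -0.31 to 0.18, the narrowest scatter around any of the 7. IRAG1, a substrate of protein kinase G at the inositol trisphosphate receptor, had 4.23 with sildenafil and 3.99 without it. Its difference of 0.25 was smaller than the SD of 0.28 among genes of like signal.

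Relatives of both effectors had lower signals with sildenafil, while other genes of their lists lay on either side of 0. IRAG2, which is related to IRAG1, had a signal of 4.55 with sildenafil and 4.85 without it, a difference of -0.30, opposite in sign to that of IRAG1. CNGA3, a subunit of a cGMP-gated channel, had 4.15 with sildenafil and 3.80 without it, a difference of 0.35, and passed the filter only through the array with sildenafil. Of 16 listed cGMP effectors 9 were named and 4 passed the filter, with 0 at 1.5-fold and a median difference of 0.14. Of 12 genes of the Ena/VASP family and its partners, 11 were named and 9 passed the filter, with 3 higher, 6 lower and a median of -0.07. EVL, another member of the family, had 5.45 with sildenafil and 5.60 without it, a difference of -0.15. ENAH, which did not pass the filter, had 3.44 with sildenafil and 3.46 without it. The focal adhesion genes LPP and VCL differed by -0.17 and -0.16, and ZYX by 0.11.

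ADCY7 had the largest difference of the 7 genes, at a signal within the background-like range. It encodes an adenylyl cyclase that is prominent in blood cells and forms cAMP. Its log2 signal was 3.97 with sildenafil and 3.52 without it, a difference of 0.46 or 1.37-fold. Genes of like signal had an SD of 0.29 and a central 95% of -0.52 to 0.57. At least 1.3-fold was reached by ADCY7 alone among the 7, and by 8.67% of the 10081 genes past the filter (466 higher and 408 lower). Because ADCY7 was below the filter level of 3.91 without sildenafil, the size of its difference is uncertain.

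The other 9 adenylyl cyclases, all of them named, were closer to equal. ADCY3 was bright, with 7.37 with sildenafil and 7.29 without it, a difference of 0.08. ADCY9 had 5.20 with sildenafil and 5.29 without it, ADCY1 had 4.01 with sildenafil and 4.15 without it, and ADCY5 had 4.10 with sildenafil and 4.18 without it. The remaining ADCY2, ADCY4, ADCY6, ADCY8 and ADCY10 did not pass the filter, and their differences lay between -0.05 for ADCY6 and 0.11 for ADCY2. GNAS, the stimulatory G protein subunit that activates the membrane-bound cyclases, differed by 0.12.

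Upstream and downstream of cAMP, 0 genes of the lists reached 1.5-fold. Of 14 receptors coupled to the stimulatory G protein 12 were named and 11 passed the filter, 9 higher and 2 lower with sildenafil, with a median of 0.17. The split was 8 higher and 3 lower after median centring and after lowess centring, with medians of 0.14 and 0.12. Most of these receptors were dim. Around the dim members above, genes of like signal already had positive medians (0.03 around NOS3 to 0.06 around NOS1). The split was not compared with genes of like signal. ADORA2B, a low-affinity adenosine receptor, had 5.47 with sildenafil and 4.93 without it, and its difference of 0.54 lay outside the central 95% of genes of like signal (-0.47 to 0.47). DRD1, past the filter only with sildenafil, differed by 0.37, ADRB3 by 0.24 and PTGIR by 0.20, all at signals under the 95th percentile of the tissue-restricted genes. For PTGIR, with 5.73 with sildenafil and 5.53 without it, this rests on ALB. Without ALB the percentile was 5.33 with sildenafil and 5.14 without it, and PTGIR exceeded it on both arrays. The bright receptors of this list were equal or nearly so, with PTGER4, a prostaglandin E2 receptor, at 7.30 with sildenafil and 7.22 without it, and GPR65, an acid-sensing receptor, at 8.47 with sildenafil and 8.58 without it. Of 16 cAMP effectors 4 were named and HCN3, HCN4 and RAPGEF3 passed the filter, with differences of 0.31, -0.23 and -0.03. The 8 A-kinase anchoring proteins past the filter had a median of 0.00 and ran from -0.23 for AKAP9 to 0.09 for AKAP8, with AKAP13 at -0.18 and AKAP5 at -0.09. A second probe set of AKAP13 differed by 0.12.

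The transcription factor CREB, which protein kinase A activates, its coactivators and the kinases that restrain them had a list median slightly under 0. All 10 named genes of this list passed the filter, 8 lower and 2 higher, with a median of -0.07. The median was -0.10 after median centring, with 8 lower and 2 higher. It was -0.04 after lowess centring and -0.02 after quantile normalization, with 7 lower and 3 higher under each. CREB1 and its coactivator CRTC2 differed by -0.11 each and CREM by -0.19. SIK2, 1 of those kinases, had 8.14 with sildenafil and 7.88 without it, and its difference of 0.27 lay outside the range of -0.31 to 0.18 of genes of like signal. The 10 CREB target genes past the filter had a median of -0.03, with 4 higher and 6 lower, but of 0.03, with 7 higher and 3 lower, after quantile normalization. PCK1 differed by 0.51, EGR1 by 0.42, FOSB by 0.26 and FOS by -0.15. Second probe sets differed by -0.29 for FOSB and by 0.05 for FOS, so the direction of both genes rests on the probe set. PCK1 had 3.97 with sildenafil and 3.46 without it and passed the filter only through its value with sildenafil, so the size of its difference is uncertain.

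**Figure D3:**
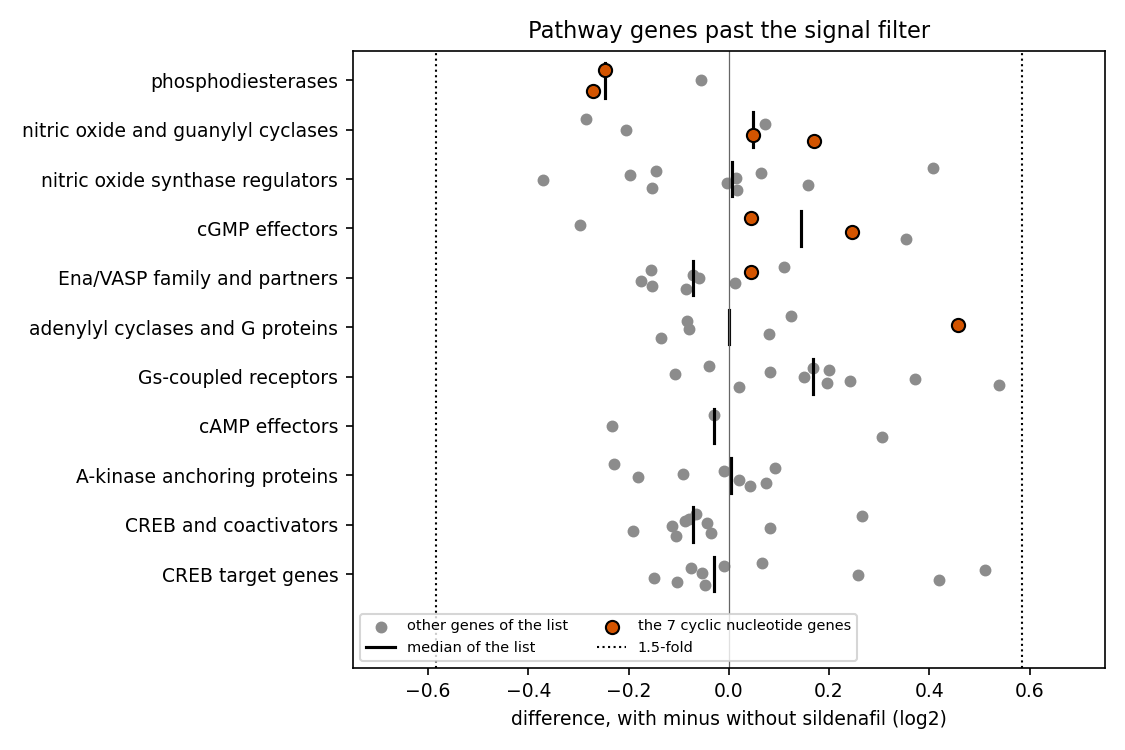
Difference in log2 signal (romidepsin plus sildenafil minus romidepsin) of the genes past the signal filter in each pathway list. Orange points are the 7 cyclic nucleotide genes, grey points the other genes, vertical bars the median of each list, and dotted lines 1.5-fold, which no gene reaches.

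Across the pathway lists 98 genes other than the 7 were named of 166 listed, and 71 passed the filter. Of these 31 were higher and 40 lower, with a median of -0.04, and the split depended on the scaling. It was 26 higher and 45 lower after median centring, 31 higher and 41 lower after lowess centring, and 36 higher and 36 lower after quantile normalization. Their differences ran from -0.37 for GCH1 to 0.54 for ADORA2B. At least 1.3-fold was reached by 4 of the 71 (5.63%), against 8.67% of all genes past the filter. Only GCH1, QDPR, ADORA2B and SIK2 lay outside the central 95% of genes of like signal, which by its construction leaves out 5% of genes. A gene may stand in more than 1 list and is counted once here.

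Promoter sequence was compared for the 4 members found in the RefSeq promoter table (build GRCh38.p14), each window running from 250 bases before to 50 bases after a transcription start. VASP, ADCY7 and NOS1 had 1 window each and NOS3 had 2 overlapping ones. The sequences of ADCY7, the member with the largest difference, and of VASP, a bright member with a nearly equal signal, are given 5′ to 3′ on the gene's strand. Capitals mark TGACTCA, the motif of AP-1 factors, on either strand, and VASP holds none.
ADCY7, chr16:50266301-50266600, plus strand: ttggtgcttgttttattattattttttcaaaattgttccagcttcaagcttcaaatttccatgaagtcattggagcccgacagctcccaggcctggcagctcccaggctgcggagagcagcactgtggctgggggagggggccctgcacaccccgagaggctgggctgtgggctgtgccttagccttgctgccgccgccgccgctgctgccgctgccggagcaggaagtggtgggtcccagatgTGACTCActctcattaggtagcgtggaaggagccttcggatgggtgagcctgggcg
VASP, chr19:45507229-45507528, plus strand: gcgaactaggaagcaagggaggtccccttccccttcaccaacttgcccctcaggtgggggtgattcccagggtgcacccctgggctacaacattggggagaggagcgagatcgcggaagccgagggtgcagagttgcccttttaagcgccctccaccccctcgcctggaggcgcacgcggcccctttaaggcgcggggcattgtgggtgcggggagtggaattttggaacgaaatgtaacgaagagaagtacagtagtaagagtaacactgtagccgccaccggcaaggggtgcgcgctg

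The CREB motif TGACGTCA and its shorter core TGACG, which the full motif contains, were found in 0 of the 4 genes' windows on either strand. Of all 35116 promoter windows of 300 bases, 1.85% held TGACGTCA and 24.6% held TGACG. The AP-1 motif, which shares its first 4 bases with the CREB core, was found in ADCY7, where it begins 6 bases before the start, and in NOS1, where it begins 111 bases before the start, and in 4.95% of all windows. The 30 bases around it are shown for both genes.
ADCY7, chr16:50266534-50266563, plus strand: ggtcccagatgTGACTCActctcattaggt
NOS1, chr12:117309503-117309532, minus strand: ggtggcctaggTGACTCAgcaagtgatgac

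A motif of Sp1 factors, GGGCGG, was found in NOS3 and in 45.0% of all windows. The G and C content was 53.3% in the NOS1 window, 59.7% in ADCY7, 61.3% in VASP, and 65.3% and 66.7% in the NOS3 windows. These matches describe letters in a window and say nothing about binding.

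The identity of the cells was checked with lineage markers. Of 15 NK and T cell markers 8 were named, and 5 of them exceeded the 95th percentile of the tissue-restricted genes on both arrays, among them PRF1 (perforin), NKG7, CD2 and NCAM1 (CD56). CD7, TBX21 and GNLY did not. CD7 had 5.21 with sildenafil and 5.15 without it, and TBX21 had 5.09 with sildenafil and 4.62 without it, a difference of 0.47. GNLY, which encodes granulysin, was dim, with 3.92 with sildenafil and 3.82 without it. Of 17 markers of other lineages 11 were named, and 5 lay below the table median on both arrays, among them LYZ, CD14 and EPCAM. Of all 14884 named genes, 10081 reached that median on at least 1 array. The share exceeding the 95th percentile of the tissue-restricted genes was not counted. Ordered by mean signal, the 7th of 10 near-equal parts of those 10081 genes began at 6.24. That is above the percentile of each array (5.82 with sildenafil and 5.94 without), so exceeding it was common among named genes. CD68 and KRT18 exceeded the percentile on both arrays. ALB did so too, but it is the brightest of the genes that set the percentile, so its place was fixed in advance. KRT18 differed by 0.34, and its part in the results above was not tested.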

How the data were processed

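The 2 samples were assigned to romidepsin plus sildenafil and to romidepsin from their titles. Per the labels' protocols, total RNA was converted to whole-transcript cDNA, which was fragmented and biotin-labelled for the array. The authors deposited 1 table of log2 signals for 53617 probe sets, and its summarisation, background correction and normalization are, like the log base, not given in the sources used here. Base 2 was assumed: the highest value, 13.05, exceeds what a 16-bit scanner can give in natural logs (11.1). The sorted columns differed by at most 0.15, so a change shared by most transcripts would not show, and the number of arrays limits the precision.

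Gene symbols came from GEO's platform annotation, which named 16098 probe sets by 1 symbol, 0 by several and left 37519 unnamed here. All 16098 Entrez identifiers matched the RefSeq gene table. For 779 genes with several probe sets the one with the highest mean signal was used. The signal filter asked for 3.91, the table median, on at least 1 array.

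Background-like signal was planned from olfactory receptor genes, of which only 1 was named, so the list of tissue-restricted genes was used instead. A member was above it when both arrays exceeded its 95th percentile. Named genes are the members, the other phosphodiesterases and cyclases, and up to 4 genes of each other list with the largest difference. Markers, housekeeping genes, some receptors, relatives of members and genes outside the range of like-signal genes were named after their values were seen. The members and lists were chosen with earlier results of these data known. Counting by fold and the spread of genes of like signal were tested on simulated data. The tools were pandas 2.3.3 and numpy 2.4.6 under Python 3.11.15, with statsmodels 0.14.6 for lowess and matplotlib 3.10.9 for plots.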

Additional observations from a re-analysis of the deposited data

How the results depend on the processing

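The differences of the 7 genes kept their sign under lowess centring (span 0.3), quantile normalization, median centring and the mean of all probe sets, moving by at most 0.06, less than the SD of genes of like signal. Since each member has 1 probe set, that last setting could not move them. The count of members beyond 1.5-fold stayed at 0 under each alternative but a threshold of 1.3-fold, where it was 1, and that of all pathway genes likewise, where it was 5. All 7 members passed the main filter with 0 at 1.5-fold, so the other filters and the 2-fold threshold could not change their count. Stricter filters and 2-fold could not raise that of the pathway genes either. The count over all genes, 201, was 379 with no filter, 106 with both arrays at or above the table median, 50 with a mean signal of at least 5, 874 at 1.3-fold and 18 at 2-fold. The count of members above background-like signal, 2, was also 2 with the 90th percentile, without ALB and with 130 genes of sensory, skin and lens families, and 3 with the 75th percentile, NOS3 being added. These 4 background settings were chosen after seeing the data. The 90th percentile and the omission of ALB gave the same levels, so they amount to 1 check. The alternatives planned with the 90th and 99th percentile of olfactory receptor genes were not run, because 1 such gene was named. No paired analysis was possible because each group holds 1 array. Signal over background limits NOS1, NOS3, PDE9A, IRAG1 and ADCY7, whose signals overlap those of genes the cells are not known to use.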
